A study of Homo sapiens with 12 samples.

Results

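The 39 genes described here drive the cell cycle and mitosis. They come from a list of gene symbols, chosen with earlier results of these data known. Of these genes, 14 act at the G1/S transition and in DNA replication (CCNE1, CCNE2, CCND1, CDK2, CDC25A, E2F1, E2F2, CDC6, CDT1, MCM2, MCM3, MCM5, MCM7 and PCNA), and 25 act in G2 and mitosis. The latter are the cyclins, CDK1 and the CDC25 phosphatases (CCNA2, CCNB1, CCNB2, CDK1, CDC25B and CDC25C), transcription factors (FOXM1 and MYBL2), mitotic kinases and their partners (AURKA, AURKB, PLK1, BIRC5 and TPX2), genes of the spindle checkpoint and the APC/C (BUB1, BUB1B, MAD2L1, CDC20 and UBE2C), kinetochore proteins and motors (CENPE, CENPF, KIF11, KIF20A and KIF23) and chromosome proteins (MKI67 and TOP2A). All 39 were found among the 62710 Ensembl genes of the count table, and all 39 were among the 20593 genes that passed the filter on low counts. The splicing table held 647 tested events in the same 39 genes, of 100386 tested events in 10693 genes.

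The libraries are poly(A) RNA-seq of HEK293T, a transformed human cell line derived from embryonic kidney that carries the large T antigen of a simian polyomavirus. Each culture received an effector vector and a guide RNA vector by transient transfection, so a culture can hold cells that took up little of either, and RNA was taken 48 hours later. The effectors were dCasRx, a form of the RNA-targeting protein CasRx that binds RNA without cutting it; dCasRx-RBM25, its fusion to RBM25, which regulates splicing; and RBFOX1N-dCasRx-C, its fusion to parts of RBFOX1, another regulator of splicing. The guide was nontargeting (NT), or directed at exon 10 of MAPT (activation), or directed at exon 13 of CD46 (repression). All groups carry dCasRx and a guide RNA. The groups are dCasRx_NT (dCasRx with the NT guide), RBM25_NT, RBM25_MAPT and RBM25_CD46 (dCasRx-RBM25 with each guide), and RBFOX1N_NT and RBFOX1N_MAPT (RBFOX1N-dCasRx-C with the NT or MAPT guide). Each of the 6 groups has 2 libraries, called biological replicates, so p-values measure the spread between such libraries. There is no group of untransfected cells and none of dCasRx with a targeting guide.

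Progress through the cell cycle is run by cyclins, each of which activates a cyclin-dependent kinase (CDK). In G1, cyclin D and cyclin E with their kinases phosphorylate the RB proteins and free the E2F factors, which switch on the genes for DNA replication. In G2 and mitosis, cyclins A and B with CDK1, the CDC25 phosphatases that activate it, and the factors FOXM1 and MYBL2 lead into chromosome condensation, spindle assembly and, through the anaphase-promoting complex (APC/C), chromosome separation. In HEK293T cells the large T antigen binds the RB proteins. In RNA from whole cultures, fewer cells in a phase and less RNA per cell cannot be told apart.

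Library totals lay between 32487927 and 53985468 counts. Levels are in counts per 1000000 (CPM), scaled with edgeR's TMM factors. The 2 replicates of each group differed beyond counting error (chi-square of 6.07 to 32.7 per gene). A principal component analysis used only the most variable of the tested genes. In it dCasRx_NT replicate 2 stood apart on the second component, at 50.3, against 18.2 for dCasRx_NT replicate 1 and -12 to -1.84 for the other 10 libraries. Genes that mark this line were detected in every library, such as NEFL at 82.2 to 127 CPM and VIM at 646 to 863 CPM. Of the genes of blood, endothelium, fibroblasts and other cell types, PTPRC, CD68, HBB and KRT5 were at or near 0, and COL1A1 was the most abundant, at 20.3 to 34.4 CPM. The sum over that list was 31.1 and 33.2 CPM in dCasRx_NT, 23 to 36.1 CPM in the 6 RBM25 libraries and 22.6 to 28.6 CPM in the 4 RBFOX1N libraries; its part in the results below was not tested. The summed mitochondrial mRNAs ranged from 22400 to 34500 CPM, both reached within RBFOX1N_MAPT.

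Every one of the 39 genes was expressed in every library. Per kb of exon, the G1/S genes ran from PCNA, the sliding clamp of DNA replication, at a mean of 260 CPM per kb, down to CCNE2, a cyclin E, at 5.62 CPM per kb. Among the G2/M genes, MYBL2 was highest at 169 CPM per kb, followed by the APC/C activator CDC20 at 148, and CDC25C was lowest at 8.5. MCM7, a subunit of the replicative helicase, stood at 165 CPM per kb, with a range of 144 to 177 that overlaps that of MYBL2 (141 to 203). The group means of a gene differed little: the highest over the lowest was 1.08 for CCNB1 (cyclin B1) and AURKA (Aurora kinase A) and reached 1.76 for CCNE1 (cyclin E1), which spread most, before MKI67 (1.57), CDC25C (1.5), E2F1 (1.5) and CCNE2 (1.46).

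**Figure D1:**
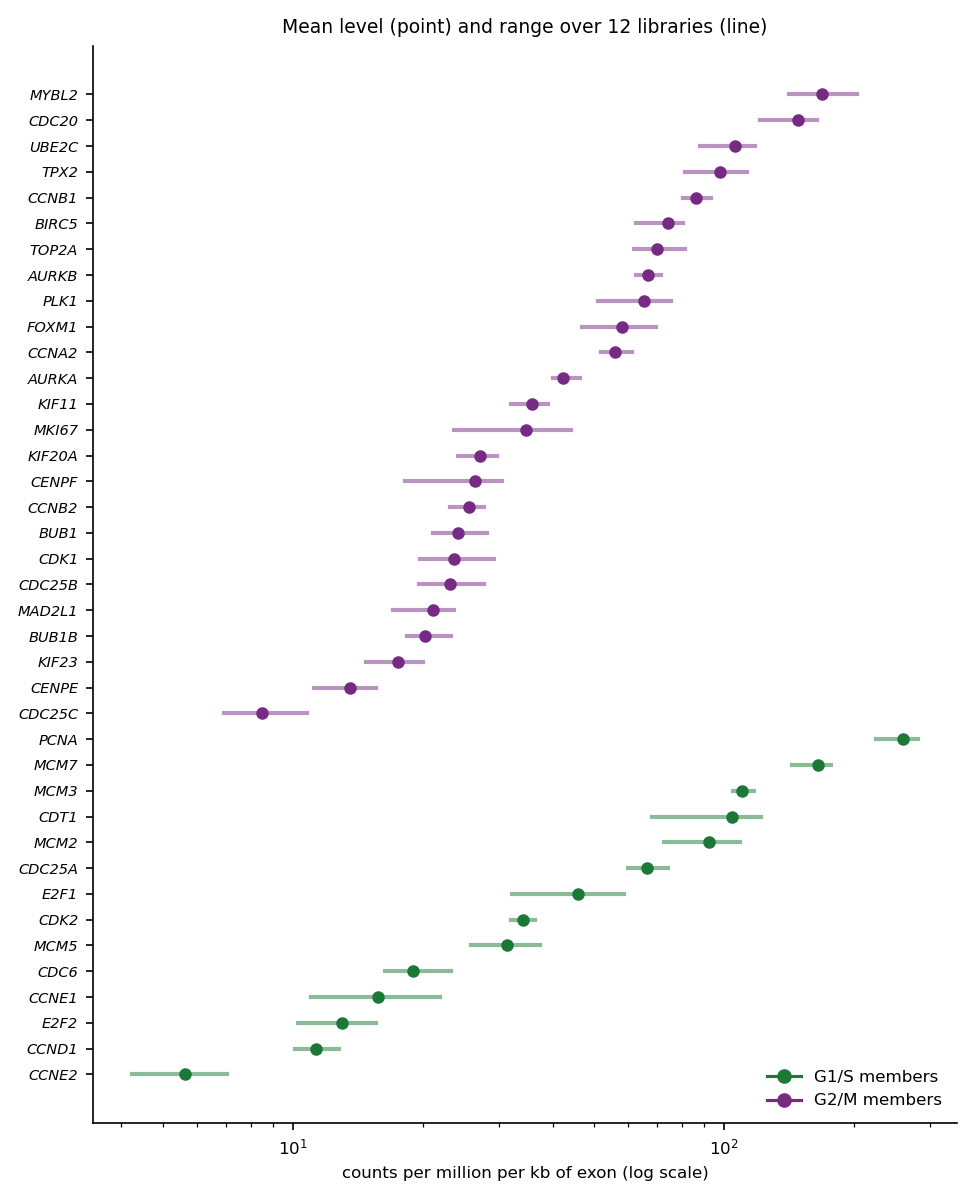
Mean level of each of the 39 genes over the 12 libraries (points) with the lowest and highest library (lines), in CPM per kb of exon on a log axis, G1/S and G2/M genes apart. The G1/S genes run from 5.62 for CCNE2 to 260 for PCNA, and the G2/M genes from 8.5 for CDC25C to 169 for MYBL2.

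Summed over the 14 G1/S genes, the dCasRx_NT libraries held 3190 and 3010 CPM, the RBM25 libraries 3120 to 3500, and the RBFOX1N libraries 3410 to 3660. The 25 G2/M genes summed to 4890 and 4460 CPM in dCasRx_NT, 4920 to 5330 in the RBM25 libraries and 5370 to 5610 in the RBFOX1N libraries. For the G2/M genes the 3 effectors took ranges that did not overlap, lowest in dCasRx_NT. For the G1/S genes the RBM25 range overlapped both others.

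The promoters of the 2 sets carry different short motifs, which are shown here because they are the elements through which E2F and the G2/M factors are known to act. The 250 bases before the RefSeq start were available for 10 of the 14 G1/S genes and 20 of the 25 G2/M genes (RefSeq, GRCh38.p14). An E2F motif (TTTCCCGC, TTTGGCGC, TTTCGCGC or TTTGCCGC, either strand) was found in 7 of the 10 G1/S genes (CDC25A, CDT1, E2F1, E2F2, MCM3, MCM7 and PCNA) and in 1 of the 20 G2/M genes (CDK1), against 3.4% of all 27305 genes with such a window. The CHR element (TTTGAA or TTTAAA, either strand) was in 14 of the 20 G2/M genes and 1 of the 10 G1/S genes, against 25.5% of all genes. CCAAT boxes were in 17 of 20 G2/M and 6 of 10 G1/S genes, against 37% of all genes. A match is a description of the letters and not a measured binding site. The promoters of E2F1 (GRCh38.p14, chr20:33686386-33686635, minus strand) and PLK1 (chr16:23678639-23678888, plus strand) are printed as examples of the 2 sets, with E2F, CHR and CCAAT matches in capitals (ATTGG is CCAAT on the other strand).
E2F1: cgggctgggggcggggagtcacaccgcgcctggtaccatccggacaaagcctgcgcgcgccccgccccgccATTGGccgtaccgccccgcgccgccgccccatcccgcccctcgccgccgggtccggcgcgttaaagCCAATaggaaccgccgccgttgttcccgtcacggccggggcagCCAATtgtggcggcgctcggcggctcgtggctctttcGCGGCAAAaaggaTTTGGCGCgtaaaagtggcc
PLK1: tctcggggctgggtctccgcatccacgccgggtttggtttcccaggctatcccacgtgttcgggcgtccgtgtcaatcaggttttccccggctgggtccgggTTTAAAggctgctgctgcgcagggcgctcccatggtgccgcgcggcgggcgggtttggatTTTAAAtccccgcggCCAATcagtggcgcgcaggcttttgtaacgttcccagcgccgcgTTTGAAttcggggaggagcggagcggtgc
E2F1 holds 2 E2F matches close to its start and no CHR match, and PLK1 holds 3 CHR matches and no E2F match.

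The first comparison asks what dCasRx-RBM25 changed relative to dCasRx, both with the NT guide. Few of the cell cycle genes moved. PLK1, the Polo-like kinase that drives entry into mitosis, rose, and CDC6, the loader of the replicative helicase, fell. The edgeR test called 1 of 39 genes higher at an adjusted p under 0.05, where it called 3.88% of all 20593 genes higher, and 1 of 39 lower, where it called 3.74% lower (5.13% either way, against 7.62%). The share called was thus near the background. Unadjusted, p was under 0.05 for 10 of the 39 genes and for 24.5% of all genes. The median log2 difference was 0.06 over the 39 genes and 0.01 over all genes, and 29 of the 39 differences were positive.

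PLK1 stood at 263 and 242 CPM in dCasRx_NT and at 316 and 310 CPM in RBM25_NT. Both RBM25_NT libraries lay above both dCasRx_NT libraries, and so did the other 4 RBM25 libraries, at 289 to 316 CPM. The log2 difference was 0.31 (SE 0.080, edgeR adjusted p = 0.0334). CDC6 stood at 118 and 129 CPM in dCasRx_NT against 101 and 102 CPM in RBM25_NT, without overlap, a log2 difference of -0.29 (SE 0.078, edgeR adjusted p = 0.0402). Over all 20593 genes, the libraries of RBM25_NT and dCasRx_NT did not overlap for 50.3%. Both calls were lost when dCasRx_NT replicate 2, RBM25_NT replicate 1 or RBM25_NT replicate 2 was left out, and when only the 4 libraries compared were fitted (adjusted p up to 0.203 for PLK1 and 0.221 for CDC6). The CDC6 call was also lost with no filter on low counts.

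The cyclin E genes and E2F1 had negative differences in RBM25_NT that did not pass the test, and CCND1 (cyclin D1) a positive one. CCNE1 differed by -0.31 (SE 0.100, adjusted p = 0.0749) and E2F1 by -0.32 (SE 0.13, adjusted p = 0.158), while CCND1 differed by 0.20 (SE 0.096, adjusted p = 0.209). MCM2, a helicase subunit, differed by 0.27 (SE 0.096, adjusted p = 0.103) and PCNA by 0.16 (SE 0.081, adjusted p = 0.248). In G2/M, the APC/C activator CDC20 and the APC/C partner UBE2C differed by 0.24 (SE 0.083, adjusted p = 0.0963) and 0.24 (SE 0.082, adjusted p = 0.0874). CCNB1, CDK1, AURKA, CCNA2 (cyclin A2) and MKI67, which codes for the proliferation antigen Ki-67, had differences between -0.04 and 0.05, with SEs of 0.080 to 0.13.

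RBFOX1N-dCasRx-C was next compared with dCasRx, again with the NT guide; the 2 dCasRx_NT libraries are the same as in the first comparison. Here 10 genes rose and 1 fell. Of the G1/S genes, CCNE1, E2F2 and MCM2 rose and CDC6 fell. Of the G2/M genes, CDC25C, PLK1, TPX2 (a spindle assembly factor), CDC20, UBE2C, KIF23 (a motor of the central spindle) and MKI67 rose, and none fell. The edgeR test called 10 of 39 genes higher, where it called 7.52% of all genes higher, and 1 of 39 lower, where it called 3.25% lower (11 of 39, or 28.2%, either way, against 10.8%). The median log2 difference was 0.18 over the 39 genes and -0.01 over all genes tested.

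MKI67 showed the largest of these differences. It read 415 and 303 CPM in dCasRx_NT and 508 and 539 CPM in RBFOX1N_NT, a log2 difference of 0.54 (SE 0.12, edgeR adjusted p = 0.0112). The RBFOX1N_NT libraries lay above both dCasRx_NT libraries, of which replicate 2 was the lowest of all 12 libraries. PLK1 read 359 and 326 CPM against 263 and 242 CPM, a difference of 0.44 (SE 0.080, adjusted p = 0.00392). MCM2 read 536 and 491 CPM against 390 and 355 CPM, a difference of 0.46 (SE 0.096, adjusted p = 0.00825). The libraries of both genes did not overlap between the groups. Over all 20593 genes, the libraries of RBFOX1N_NT and dCasRx_NT did not overlap for 56.7%.

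CDC6 was the exception in direction, with 98.9 and 91.4 CPM in RBFOX1N_NT against 118 and 129 CPM, a difference of -0.38 (SE 0.079, adjusted p = 0.00828). CDC6 was thus lower than dCasRx_NT under both fusions, which were set against the same 2 control libraries. CDC25C, a phosphatase that activates CDK1, read 36 and 33.6 CPM against 26.4 and 26.5 CPM (0.40, SE 0.084, adjusted p = 0.00982). E2F2, an activating E2F factor, read 79.6 and 85 CPM against 60.5 and 62.1 CPM (0.43, SE 0.12, adjusted p = 0.0367). Both were higher in RBFOX1N_NT with no overlap.

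CCNE1 read 49.9 and 49 CPM against 40.1 and 37.4 CPM (0.35, SE 0.099, adjusted p = 0.0393). TPX2, CDC20, UBE2C and KIF23 differed by 0.27 to 0.33, with adjusted p of 0.0267 to 0.0493. CDC25A (adjusted p = 0.0522) and the kinetochore protein CENPF (0.47, SE 0.14, adjusted p = 0.052) lay just outside the threshold. The landmark genes of this comparison that were not called ranged from -0.09 to 0.26: E2F1 0.17, CCND1 0.08, PCNA 0.18, CCNA2 0.15, CCNB1 0.08, CDK1 -0.09, AURKA 0.02, FOXM1 0.26, TOP2A (topoisomerase II alpha) 0.01 and BIRC5 (survivin) 0.22, with SEs of 0.080 to 0.13. A count this size depended on single libraries: without dCasRx_NT replicate 2 only PLK1 was called, without RBFOX1N_NT replicate 1 only CDC6 and MKI67, and without RBFOX1N_NT replicate 2 only MCM2, CDC25C and PLK1. The calls of E2F2 and KIF23 were lost in each of the 4 fits with a library left out. The KIF23 call was also lost with other size factors, with no filter on low counts, and with only the groups compared. Fitted on the 4 libraries alone, 6 of the 39 genes were called.

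**Figure D2:**
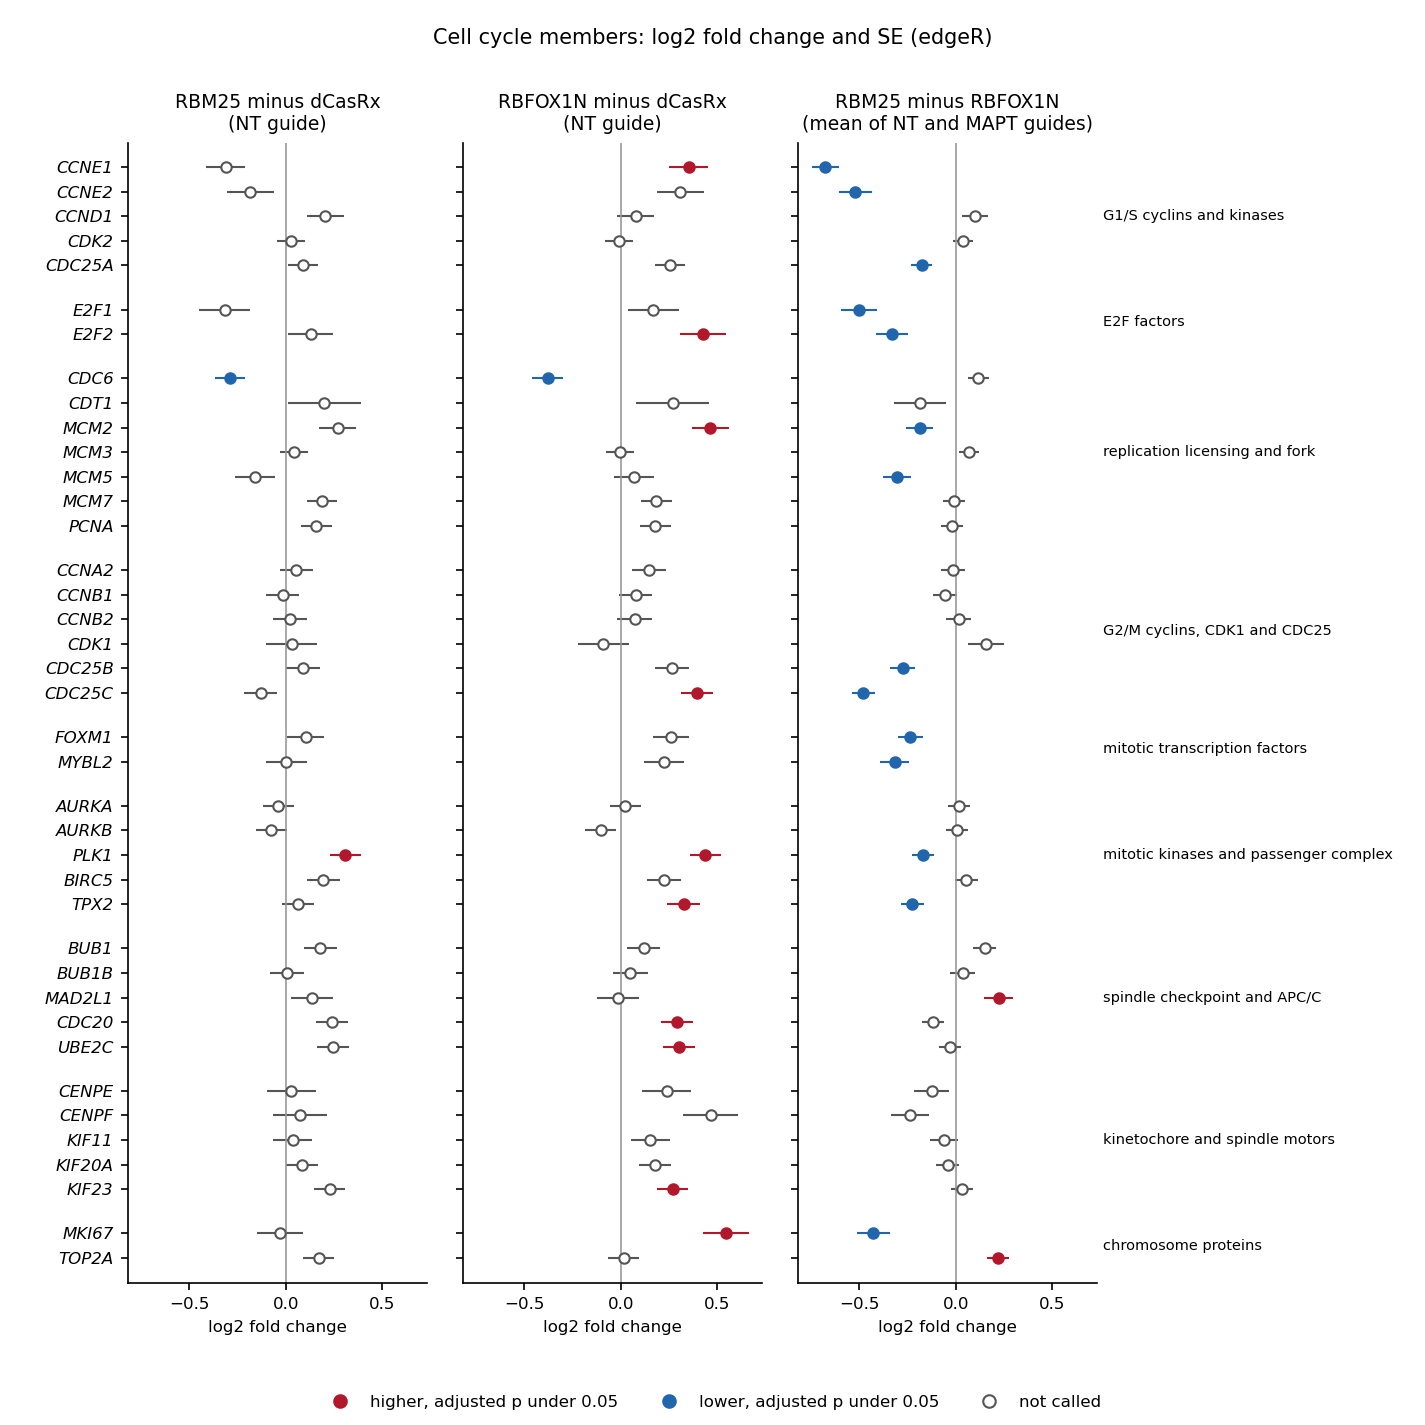
Fitted log2 difference of each of the 39 genes (points, bars are SE), ordered by role, for RBM25_NT against dCasRx_NT, RBFOX1N_NT against dCasRx_NT, and RBM25 against RBFOX1N over the NT and MAPT guides; filled points were called at an adjusted p under 0.05. The called genes number 2, 11 and 16, and CCNE1 has the lowest value, -0.68, in the third comparison.

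The third comparison set the fusions against each other over the NT and MAPT guides, 4 libraries against 4. No dCasRx_NT library is in the contrast, although the fit, and so its filter, scaling and spread, includes all 12 libraries. The cyclin E genes, E2F1 and CDC25C were the most different: all 4 were lower with dCasRx-RBM25. In all, 14 of the 39 genes were called lower by edgeR, where 18.7% of all genes were, and 2 were called higher, where 18% were (16 of 39, or 41%, either way, against 36.7%). The called share was thus near the background. Of the 16 calls 14 were lower, where 3856 of the 7553 calls over all genes were. The lower genes were 7 of the 14 G1/S genes (CCNE1, CCNE2, CDC25A, E2F1, E2F2, MCM2 and MCM5) and 7 of the 25 G2/M genes (CDC25B, CDC25C, FOXM1, MYBL2, PLK1, TPX2 and MKI67). The higher genes were the spindle checkpoint gene MAD2L1 and TOP2A. The median log2 difference was -0.06 over the 39 genes and 0.01 over all genes.

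CCNE1 (ENSG00000105173, chr19:29811898-29824308 in GRCh38) read 28 and 34.4 CPM in RBM25_NT and 33.1 and 34.9 CPM in RBM25_MAPT. It read 49.9 and 49 CPM in RBFOX1N_NT and 53.7 and 56 CPM in RBFOX1N_MAPT. The highest RBM25 library lay well below the lowest RBFOX1N library, and dCasRx_NT lay between, at 40.1 and 37.4 CPM. The log2 difference was -0.68 (SE 0.070, edgeR adjusted p = 1.2e-05). It was -0.66 with the NT guide alone (adjusted p = 0.000724) and -0.69 with the MAPT guide alone (adjusted p = 0.000412).

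CCNE2, the second cyclin E, was lower in the same way, at 19.3 and 23.1 CPM in RBM25_NT and 18.7 and 22.8 CPM in RBM25_MAPT against 29.4 and 30.2 CPM in RBFOX1N_NT and 29.7 and 30.9 CPM in RBFOX1N_MAPT. All 4 RBM25 libraries lay below all 4 RBFOX1N libraries, with a difference of -0.52 (SE 0.085, adjusted p = 0.000434). E2F1 (ENSG00000101412), an activator of both cyclin E genes, read 97.4 and 92.6 CPM in RBM25_NT and 118 and 80.8 CPM in RBM25_MAPT. Its replicates under the MAPT guide were far apart, and yet the higher of them stayed below the RBFOX1N libraries, at 130 and 136 CPM with the NT guide and 138 and 146 CPM with the MAPT guide. The difference was -0.50 (SE 0.093, adjusted p = 0.00112).

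CDC25C (ENSG00000158402) read 23.7 and 24.7 CPM in RBM25_NT, 25.9 and 26.3 CPM in RBM25_MAPT, 36 and 33.6 CPM in RBFOX1N_NT and 35.6 and 34.8 CPM in RBFOX1N_MAPT. The dCasRx_NT libraries, at 26.4 and 26.5 CPM, lay just above the RBM25 range. The difference between the fusions was -0.48 (SE 0.059, adjusted p = 5.2e-05). CCNE1, CCNE2, E2F1 and CDC25C were called in all 15 settings tried for this comparison, each single guide and each left-out library included.

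The other called G1/S genes moved less. E2F2 differed by -0.33 (SE 0.083, adjusted p = 0.00749) and MCM5, a helicase subunit, by -0.31 (SE 0.073, adjusted p = 0.00521). CDC25A, the phosphatase that activates CDK2, differed by -0.18 (SE 0.055, adjusted p = 0.0223), and MCM2 by -0.19 (SE 0.068, adjusted p = 0.0436). The rest of the licensing and fork genes were not called: CDC6 0.12, CDT1 -0.18, MCM3 0.07, MCM7 -0.01 and PCNA -0.02. CDT1, which loads the helicase with CDC6, ranged from 227 to 406 CPM within RBM25_MAPT, and its SE was 0.13.

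The 2 transcription factors of the G2/M program were both lower with dCasRx-RBM25; MYBL2 is placed there by its role, although it is itself an E2F target expressed from G1/S on. MYBL2 read 392 to 452 CPM in the 4 RBM25 libraries against 497 to 562 CPM in the 4 RBFOX1N libraries, a difference of -0.32 (SE 0.074, adjusted p = 0.00484). FOXM1 read 258 to 281 CPM against 301 to 341 CPM, a difference of -0.23 (SE 0.066, adjusted p = 0.0137). The ranges did not overlap for either gene. Both were called with the MAPT guide alone, and neither was called with the NT guide alone. CCNA2 (-0.01), CCNB1 (-0.06), CDK1 (0.15), AURKA (0.01), BIRC5 (0.06) and CDC20 (-0.12) were not called, with SEs of 0.056 to 0.093. Nor were CCND1 (0.10), CDK2 (0.04), CCNB2 (0.01) or AURKB (0.01).

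Between the fusions, edgeR called MAD2L1 alone of the 5 checkpoint and APC/C genes. It called 0 of the 5 kinetochore proteins and motors, where 36.7% of all genes were called. Of these kinetochore proteins and motors 1 had an unadjusted p under 0.05, where 45.9% of all genes had one. BUB1, a checkpoint kinase, differed by 0.15 (SE 0.060, adjusted p = 0.0673) and CENPF by -0.24 (SE 0.10, adjusted p = 0.0784). BUB1B, UBE2C, CENPE, KIF11 (the motor that parts the spindle poles), KIF20A and KIF23 lay between -0.12 and 0.04. The libraries of the fusions overlapped for each of these 8 genes, where 35.2% of all genes did not overlap.

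MKI67 read 332 and 370 CPM in RBM25_NT and 440 and 469 CPM in RBM25_MAPT, against 508 and 539 CPM in RBFOX1N_NT and 536 and 567 CPM in RBFOX1N_MAPT. The RBM25 libraries all lay below the RBFOX1N libraries, and the gap was wider with the NT guide. The difference was -0.43 over both guides (SE 0.084, adjusted p = 0.00162), -0.57 with the NT guide (adjusted p = 0.00581) and -0.28 with the MAPT guide (adjusted p = 0.109). TOP2A, which untangles sister chromatids, went the other way, at 467 to 521 CPM in the 4 RBM25 libraries against 398 to 437 CPM in the 4 RBFOX1N libraries (0.22, SE 0.057, adjusted p = 0.0098). MAD2L1 read 123 to 136 CPM against 98.3 to 121 CPM (0.22, SE 0.077, adjusted p = 0.0368). Neither overlapped between the effectors.

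CDC25B differed by -0.28 (SE 0.063, adjusted p = 0.00418), TPX2 by -0.23 (SE 0.059, adjusted p = 0.00941) and PLK1 by -0.17 (SE 0.057, adjusted p = 0.033). The 4 RBM25 and the 4 RBFOX1N libraries did not overlap for 16 of the 39 genes (41%), the called ones, and for 35.2% of all genes. With the NT guide alone 6 of the 39 genes were called, against 16.7% of all genes, and with the MAPT guide alone 10 were, against 22.6%. E2F2, MCM5, CDC25B, FOXM1, MYBL2 and TOP2A were called with the MAPT guide alone but not with the NT guide alone. For TPX2 and MKI67 it was the reverse. Without RBFOX1N_NT replicate 1, 10 were called, with CDC25A, MCM2, FOXM1, PLK1, TPX2 and MAD2L1 lost. Of the 8 fits that left out 1 library, MCM2, PLK1 and MAD2L1 were called in 2 each, CDC25A in 4, FOXM1 in 5, TOP2A in 6 and TPX2 in 7, and CDC25A, MCM2, PLK1 and MAD2L1 were called with neither guide alone.

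**Figure D3:**
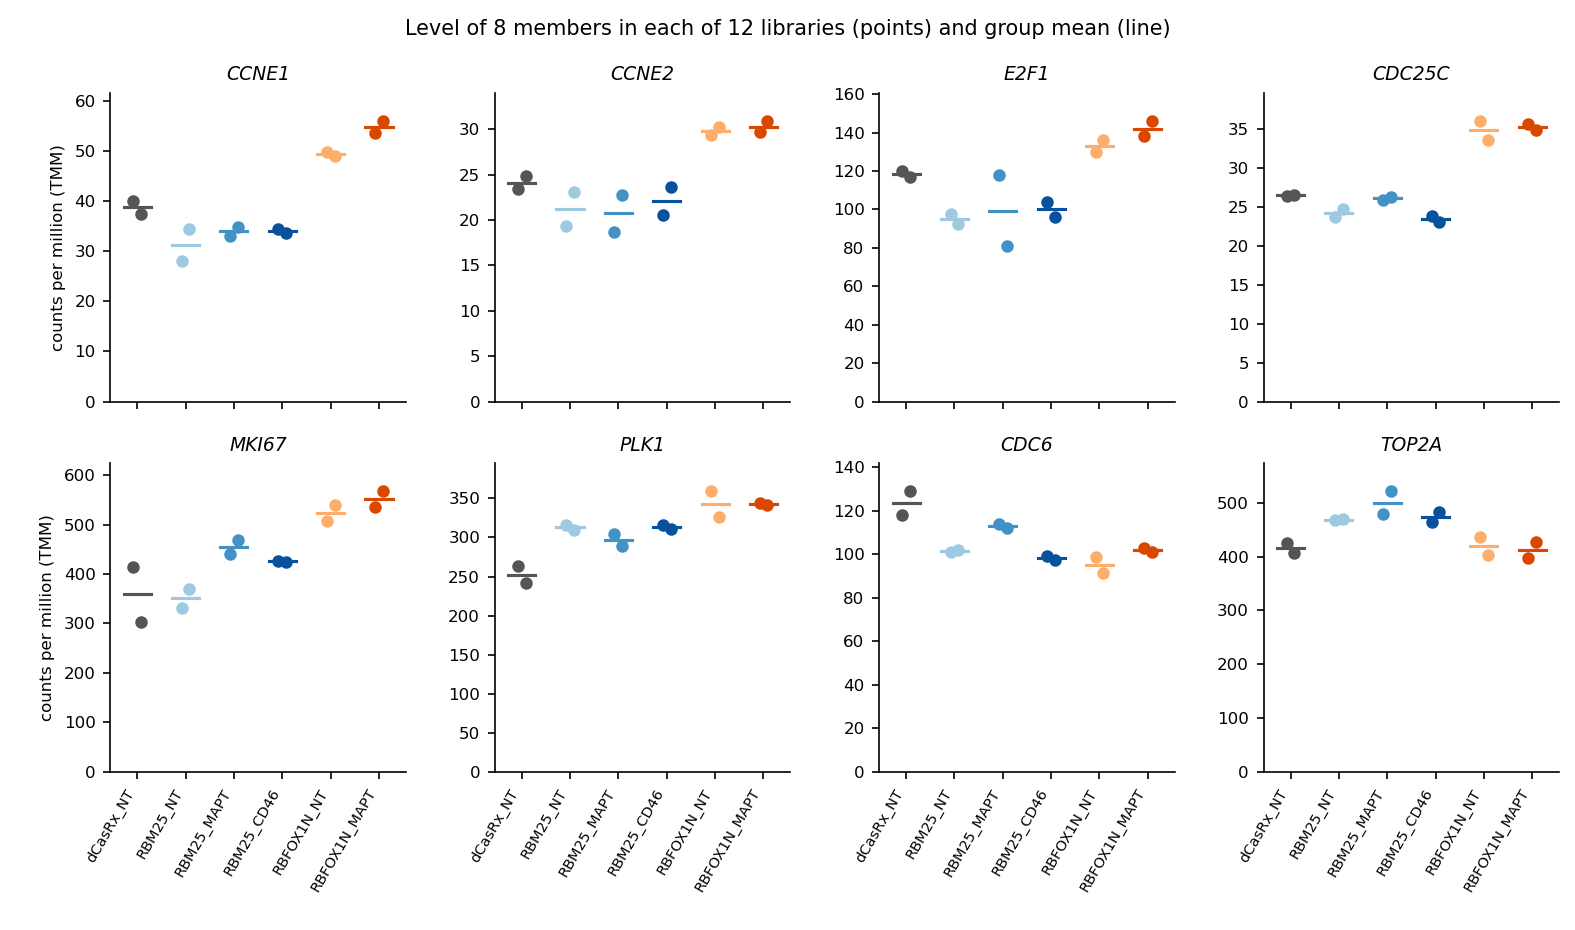
Level of CCNE1, CCNE2, E2F1, CDC25C, MKI67, PLK1, CDC6 and TOP2A in each of the 12 libraries (points) with the group mean (line), in CPM from 0. CCNE1 lies between 28 and 34.9 in the RBM25 libraries and between 49 and 56 in the RBFOX1N libraries, while TOP2A lies higher in the RBM25 libraries.

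The guides made no detectable difference to these genes. In each of RBM25_MAPT against RBM25_NT, RBM25_CD46 against RBM25_NT and RBFOX1N_MAPT against RBFOX1N_NT, edgeR called 0 of 39 genes and 0% of all 20593 genes. DESeq2 also called 0 of the 39. At an unadjusted p under 0.05, edgeR had 1, 1 and 0 of the 39 genes, where 4.98%, 2.36% and 2.03% of all genes had one. MKI67 was that gene in both RBM25 comparisons, which share RBM25_NT. It differed by 0.37 with the MAPT guide (SE 0.12, adjusted p = 0.868) and by 0.28 with the CD46 guide, at 426 and 425 CPM in RBM25_CD46 (SE 0.12, adjusted p = 1). The next smallest p belonged to BUB1B (0.18) with the MAPT guide and UBE2C (-0.14) with the CD46 guide. With RBFOX1N-dCasRx-C the smallest belonged to MAD2L1 (-0.19) and CDK1 (-0.21). The difference between the fusions in their response to the MAPT guide was called for 0 of 39 genes by edgeR, with 0 at an unadjusted p under 0.05, against 0% and 3.71% of all genes.

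The rest of the cell cycle machinery was described by 3 further lists, of 37 other G1/S genes, 49 other G2/M genes and 7 CDK inhibitors. In RBM25_NT against dCasRx_NT, edgeR called 2 of the G1/S genes higher and 4 lower, 5 of the G2/M genes higher and 2 lower, and 1 inhibitor in each direction. Either way that is 16.2%, 14.3% and 28.6% of the lists, against 7.62% of all genes, and whether the lists differ from other genes was not tested. RB1, the retinoblastoma protein itself, fell from a mean of 70.6 to 45.1 CPM (-0.65, SE 0.10, adjusted p = 0.00278), and HMMR, a protein of the spindle, fell from 93.9 to 64 CPM (adjusted p = 0.00656). WEE1, the kinase that holds CDK1 inactive, rose from 89.8 to 136 CPM (0.59, adjusted p = 0.001), and the kinesin KIF18B from 126 to 200 CPM (0.66, adjusted p = 0.00307). In RBFOX1N_NT against dCasRx_NT, 1 of 37 G1/S genes was called higher and 0 lower, 13 of 49 G2/M genes higher and 1 lower, and 4 of 7 inhibitors higher and 0 lower. These are 2.7%, 28.6% and 57.1% of the lists, against 10.8% of all genes. The G1/S gene was E2F8, a repressive E2F factor, which rose from 29.8 to 44.1 CPM (0.56, adjusted p = 0.0021), and WEE1 rose here too, to 143 CPM (0.67, adjusted p = 0.000226).

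Between the fusions, 7 of the 37 other G1/S genes were called higher with dCasRx-RBM25 and 9 lower, and 4 of the 49 other G2/M genes higher and 16 lower, where 18% and 18.7% of all genes were. Either way that is 43.2% of the G1/S and 40.8% of the G2/M genes, near the 36.7% of all genes. The repressive E2F factors E2F7 and E2F8 were both lower (-0.67 and -0.70, adjusted p = 1.1e-05 and 5e-06), and so was HMMR, at a mean of 66.2 against 115 CPM (-0.80, adjusted p = 4e-06). CDK6, a partner of cyclin D, and the cyclin D gene CCND2 were higher (0.50 and 0.37, adjusted p = 0.000531 and 0.00134).

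The CDK inhibitor CDKN1A (p21) had a larger difference between the fusions than any of the 39 genes. It read 175 and 145 CPM in dCasRx_NT. In the RBM25 libraries it read 107 and 87.6 CPM with the NT guide, 101 and 80.4 CPM with the MAPT guide, and 114 and 95.6 CPM with the CD46 guide. It read 363 and 352 CPM in RBFOX1N_NT and 392 and 364 CPM in RBFOX1N_MAPT. All 6 RBM25 libraries lay below dCasRx_NT, and all 4 RBFOX1N libraries above it, with no overlap. The log2 difference was -0.72 for RBM25_NT against dCasRx_NT (SE 0.13, adjusted p = 0.00654) and 1.16 for RBFOX1N_NT against dCasRx_NT (SE 0.13, adjusted p = 0.000147), 2 comparisons with the same controls, and -1.97 between the fusions (SE 0.094, adjusted p = 2.04e-08). CDKN1B (p27), a second inhibitor, read 75.8 and 82.2 CPM in dCasRx_NT, 90.9 to 96.3 CPM in the 6 RBM25 libraries and 118 to 131 CPM in the 4 RBFOX1N libraries, and rose in RBFOX1N_NT against dCasRx_NT (0.71, adjusted p = 0.000135). Between the fusions it differed by -0.44 (adjusted p = 7.06e-05). Of the 7 inhibitors, 4 were called lower with dCasRx-RBM25 than under RBFOX1N-dCasRx-C (CDKN1A, CDKN1B, CDKN2D and CDKN2B), where 18.7% of all genes were. Called higher were 0 of the 7, where 18% of all genes were.

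Splicing of the same genes was read from the percent spliced in (PSI), the percent of reads that include an exon, intron or splice site. The 647 tested events were 281 cassette exons, 199 introns, 90 alternative 3′ and 77 alternative 5′ splice sites. Most hardly moved. The range of the 6 group means had a median of 1.66 points, against 3.77 points over all 100386 events, and 39 of the 647 events (6.03%) had a range of at least 10 points, against 16.7% of all events. An event was called at an adjusted p under 0.05 in a quasi-binomial model and a difference of at least 10 points. Counted over the 647 events, 4 were called in RBM25_NT against dCasRx_NT (0.618%, against 0.732% of all events) and 3 in RBFOX1N_NT against dCasRx_NT (0.464%, against 1.15%). Between the fusions 5 were called with the NT guide (0.773%, against 1.67%) and 6 with the MAPT guide (0.927%, against 1.84%). Under this rule the share was near or below that of all events in each comparison. With no limit on size it was above in each comparison in the quasi-binomial model, but not in each with limma, given below. In the quasi-binomial model an adjusted p under 0.05 was reached by 43, 26, 57 and 51 of the 647 events. These are 6.65%, 4.02%, 8.81% and 7.88% in these 4 comparisons, against 2.31%, 2.71%, 4.67% and 4.73% of all events. Unadjusted, p in this model was under 0.05 for 22.6%, 20.2%, 23.5% and 23.5% of the 647 events, against 15.7%, 15%, 18.1% and 18.4% of all events. The difference between the members and all events was not tested, and the sets were not matched for read depth or mean PSI.

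Of the exons with a called difference, 1 each of CDC25B, CDK2, MKI67, CENPE, CCNE1 and CDC25C is printed in GRCh38, in the sense of the gene. They lie in CDK2 and in regulators of CDK1 and CDK2, or are the Ki-67 isoform exon and the CENPE exon with the largest difference, and were chosen after their values were seen. They are exon 6 of CDC25B (chr20:3800743-3800865, plus strand, 123 nt), exon 2 of CDK2 (chr12:55967857-55967934, plus, 78 nt), the first 68 nt of exon 7 of MKI67 (chr10:128115940-128116007, minus), exon 25 of CENPE (chr4:103153047-103153250, minus, 204 nt), exon 9 of CCNE1 (chr19:29821996-29822130, plus, 135 nt) and exon 6 of CDC25C (chr5:138325815-138325904, minus, 90 nt), numbered on the GENCODE 29 transcript with the longest coding part. Capitals mark CGGGCA, a motif that RBM25 is known to bind.
CDC25B exon 6: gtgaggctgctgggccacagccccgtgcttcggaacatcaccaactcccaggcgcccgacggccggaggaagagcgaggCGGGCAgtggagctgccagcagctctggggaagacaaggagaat
CDK2 exon 2: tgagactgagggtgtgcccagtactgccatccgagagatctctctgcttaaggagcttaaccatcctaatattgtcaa
MKI67 exon 7 start: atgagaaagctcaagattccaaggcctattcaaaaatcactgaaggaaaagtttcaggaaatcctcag
CENPE exon 25: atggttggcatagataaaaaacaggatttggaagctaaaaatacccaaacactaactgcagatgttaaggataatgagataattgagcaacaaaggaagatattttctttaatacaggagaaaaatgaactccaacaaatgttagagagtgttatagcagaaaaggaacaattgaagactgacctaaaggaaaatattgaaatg
CCNE1 exon 9: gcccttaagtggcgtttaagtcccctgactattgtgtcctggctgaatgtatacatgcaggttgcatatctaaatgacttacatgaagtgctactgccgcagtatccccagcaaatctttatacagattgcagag
CDC25C exon 6: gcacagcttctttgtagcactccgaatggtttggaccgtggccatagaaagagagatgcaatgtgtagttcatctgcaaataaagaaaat
All 6 lie in coding sequence, and each whole exon (1080 nt for exon 7 of MKI67) is a multiple of 3 long. CGGGCA was found once, in CDC25B exon 6, on the sense strand; it is in 2.12% of the 14080 tested cassette exons of 100 to 150 nt. TGCATG, in RNA with U for T the motif of RBFOX proteins, was in none of the 6, nor was CGGGCA in the other 5. TGCATG is in 3.05% of tested cassette exons of any length, and only the first 68 of 1080 nt were searched for MKI67. The introns, where RBFOX sites often lie, were not analysed here.

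CDC25B, the phosphatase that starts the activation of CDK1, included exon 6 more often with dCasRx-RBM25, compared with RBFOX1N-dCasRx-C. PSI was 84.6 and 84.5 in RBM25_MAPT and 61.5 and 69 in RBFOX1N_MAPT. With the NT guide it was 78.6 and 76.9 in RBM25_NT and 70.1 and 69.1 in RBFOX1N_NT. RBM25_CD46, at 79.7 and 79.8, and dCasRx_NT, at 78.3 and 79.1, lay near RBM25_NT, so the RBFOX1N libraries were the low ones and the RBM25_MAPT libraries the high ones. The difference was 19.3 points with the MAPT guide (SE 2.42, adjusted p = 0.000267) and 8.17 points with the NT guide (adjusted p = 0.0792). The call held without each of the 4 libraries in turn. The gap between the 2 differences did not pass the test (adjusted p = 1). In GENCODE, 4 of the 5 coding transcripts carry the exon and 1 skips it.

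CDK2, the kinase of cyclins E and A, used its exon 2 in 94.2 and 94.9% of reads in RBM25_MAPT and in 81.6 and 86.2% in RBFOX1N_MAPT. PSI was 95.8 and 94.2 in RBM25_NT, 87 and 86.2 in RBFOX1N_NT, 92.3 and 93.8 in RBM25_CD46, and 88.3 and 90.1 in dCasRx_NT. All 6 RBM25 libraries lay above the dCasRx_NT libraries and these above all 4 RBFOX1N libraries. The difference between the fusions was 10.6 points with the MAPT guide (SE 1.27, adjusted p = 0.000116). With the NT guide it was 8.41 points (SE 1.2, adjusted p = 0.00051), which passes the test but not the 10 points, and RBM25_NT differed from dCasRx_NT by 5.76 points (adjusted p = 0.0167). Without RBFOX1N_MAPT replicate 1 the difference was 8.29 points. No comparison called the level of CDK2, whose highest group mean was 1.12 times the lowest.

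MKI67 held the one event called between the fusions with both guides. Its exon 7, whose use separates the long from the short form of Ki-67, was entered less in the RBFOX1N libraries. The listed event covers only the start of the exon. Of the reads that either join the upstream exon to exon 7 or skip it, 41.4 and 31.2% entered it in RBFOX1N_NT and 36.1 and 40.5% in RBFOX1N_MAPT. The percent was 51.1 and 56.1 in RBM25_NT, 58.5 and 53.8 in RBM25_MAPT, 57.3 and 56.8 in RBM25_CD46, and 47.8 and 55.7 in dCasRx_NT. The 4 RBFOX1N libraries were the lowest of the 12, with no overlap. On the deposited PSI, the fusions differed by 14.8 points with the NT guide (SE 3.56, adjusted p = 0.0147) and 15.2 points with the MAPT guide (SE 3.1, adjusted p = 0.00958), while RBFOX1N_NT against dCasRx_NT gave -12.1 points (adjusted p = 0.0717). The call with the NT guide was lost without RBM25_NT replicate 2 or RBFOX1N_NT replicate 2, and that with the MAPT guide without RBM25_MAPT replicate 1 or RBFOX1N_MAPT replicate 1. Exon 2 of MKI67, which holds the start of the coding part, went the other way, at 63.3 and 55 in RBM25_MAPT against 70.4 and 70.7 in RBFOX1N_MAPT (-11.5 points, SE 2.82, adjusted p = 0.0364); leaving out RBM25_MAPT replicate 2 or either RBFOX1N_MAPT library ended that call.

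CENPE, a kinesin of the kinetochore with 49 exons, had 4 exons with called differences. Exon 25 had a PSI of 49.1 and 56.7 in RBM25_NT against 68.9 and 85.6 in dCasRx_NT and 71.3 and 73 in RBFOX1N_NT. The dCasRx_NT replicates were far apart, and yet both lay above all 6 RBM25 libraries, which reached 64.3. RBM25_NT differed from dCasRx_NT by -24.3 points (SE 4.99, adjusted p = 0.0227) and from RBFOX1N_NT by -19.3 points (SE 4.84, adjusted p = 0.0374). The first call did not survive the removal of dCasRx_NT replicate 2 (-16 points) or of RBM25_NT replicate 1, nor the second that of any 1 of its 4 libraries. With the MAPT guide the difference between the fusions was -13.5 points (adjusted p = 0.131).

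Exons 5 and 18 of CENPE were also lower in RBM25_NT than in RBFOX1N_NT. Exon 5 was at 83.9 and 84.8 against 98.1 and 95 (-12.2 points, SE 3.21, adjusted p = 0.0386), but the difference between the fusions was -2.39 points with the MAPT guide, and RBFOX1N_MAPT replicate 2 (84.1) and dCasRx_NT replicate 1 (85.8) lay among the RBM25 libraries. Exon 18 was at 83.6 and 84.2 against 97.9 and 95.1 (-12.6 points, SE 2.79, adjusted p = 0.0151), and differed by -8.57 points with the MAPT guide. Exon 20 was lower in RBM25_MAPT than in RBFOX1N_MAPT, at 86.9 and 79.6 against 97.4 and 96.3 (-13.6 points, SE 2.69, adjusted p = 0.00693). Exons 5 and 18 lost their calls without any 1 of the 4 libraries, and exon 20 without RBM25_MAPT replicate 2 or RBFOX1N_MAPT replicate 1. The level of CENPE was not called, with a log2 difference of -0.12 (SE 0.090) between the fusions.

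CENPF, a large protein of the kinetochore, held an event in exon 13 that was called between the fusions with the NT guide. Of the reads into or past that exon, 89.2 and 95.3% entered it in RBM25_NT against 98.7 and 98.8% in RBFOX1N_NT, and 99.1 and 93.7% in dCasRx_NT, so that dCasRx_NT replicate 2 lay below RBM25_NT replicate 2. The group means on this measure, 92.2 and 98.8%, are less than 10 points apart. The deposited event, which covers 459 of the 2844 nt of the exon, differed by -12 points (SE 3, adjusted p = 0.0308); the call was lost without RBM25_NT replicate 1 or either RBFOX1N_NT library. KIF20A, a kinesin of cytokinesis, used exon 5 in 84 and 82.2% of reads in RBM25_NT against 95.3 and 92.6% in dCasRx_NT, a difference of -10.8 points (SE 2.49, adjusted p = 0.0358). The other 4 RBM25 libraries lay at 81.6 to 88.6 and the RBFOX1N libraries at 86.5 to 93.9, and this call was lost without any 1 of its 4 libraries.

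CCNE1, whose level differed most between the fusions, also used exon 9 less with RBFOX1N-dCasRx-C. PSI was 60 and 66.5 in RBFOX1N_NT and 58.5 and 61.5 in RBFOX1N_MAPT, against 74 and 78.4 in dCasRx_NT. The 6 RBM25 libraries lay between, at 67.5 to 72.6. RBFOX1N_NT differed from dCasRx_NT by -13 points (SE 2.84, adjusted p = 0.0251), a call lost without dCasRx_NT replicate 2 or RBFOX1N_NT replicate 1. The fusions differed by 7.3 points with the NT guide (adjusted p = 0.219) and 8.11 points with the MAPT guide (adjusted p = 0.142). Of the 5 coding transcripts in GENCODE, 2 carry the exon and 2 skip it.

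CDC25C used its exon 6 in 78.8 and 79% of reads in RBM25_MAPT and 64.6 and 62.8% in RBFOX1N_MAPT, a difference of 15.2 points (SE 4.06, adjusted p = 0.0471). With the NT guide the libraries overlapped, at 72 and 72 against 71.8 and 77, a difference of -2.37 points. RBM25_CD46 was at 83.4 and 76.3 and dCasRx_NT at 64.9 and 67.8. This call was lost without any 1 of its 4 libraries, and the gap between the 2 differences did not pass the test (adjusted p = 1).

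**Figure D4:**
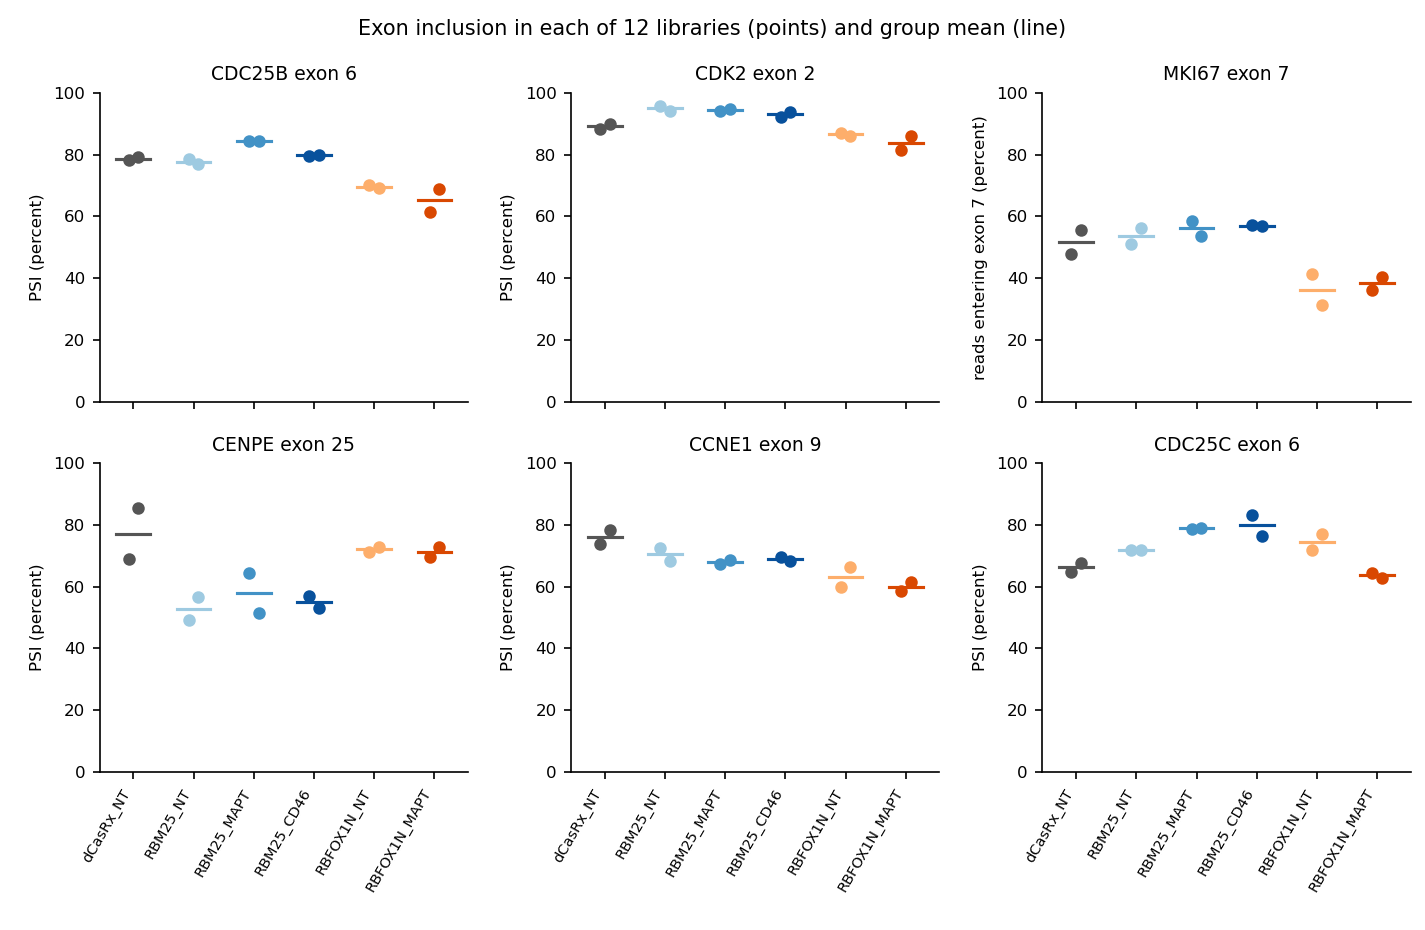
Percent inclusion of CDC25B exon 6, CDK2 exon 2, MKI67 exon 7 (percent of reads that enter it), CENPE exon 25, CCNE1 exon 9 and CDC25C exon 6 in each of the 12 libraries (points) with the group mean (line). The RBFOX1N libraries are the lowest for MKI67 exon 7, at 31.2 to 41.4, and the RBM25 libraries are below dCasRx_NT for CENPE exon 25.

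The other 4 calls are alternative 5′ splice sites of E2F2, 2 in each comparison with dCasRx_NT, where PSI of the second site was 21 and 36.5 in dCasRx_NT and 0 in RBM25_NT and RBFOX1N_NT. They rest on 1 of 67 and 2 of 63 junction reads in dCasRx_NT, enlarged by the correction for mappability in the deposited table, and the third site was not called on the uncorrected reads, on which the second had too few reads to be tested. They stay in the counts of called events given here, but are not described further. Between guides 0 of the 647 events were called in each of the 3 comparisons, against 0.000996%, 0% and 0% of all events. The quasi-binomial model gave an unadjusted p under 0.05 for 40, 38 and 46 of them (6.18%, 5.87% and 7.11%), against 5.81%, 5.9% and 5.93% of all events. Between guides limma also called 0. At an unadjusted p under 0.05 it had 23, 16 and 32 of the 647 events (3.55%, 2.47% and 4.95%), against 4.38%, 4.22% and 5.14% of all events. Fitted by limma on the logit of PSI, none of the called events passed the test in any comparison of effectors, and 5, 5, 6 and 5 smaller differences did. These are 0.773%, 0.773%, 0.927% and 0.773% of the 647 events, against 0.261%, 0.778%, 0.706% and 0.758% of all events. With limma the share was thus near that of all events in RBFOX1N_NT against dCasRx_NT and between the fusions with the MAPT guide. It was above in RBM25_NT against dCasRx_NT and between the fusions with the NT guide. Limma's unadjusted p was under 0.05 for 19.2%, 16.8%, 19.9% and 17.9% of the 647 events, against 13.1%, 13.8%, 14.5% and 15% of all events.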

How the data were processed

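RNA was sequenced from 12 libraries of HEK293T cells in 6 groups of 2. The deposited table of counts per gene was used as given, with 62710 genes; reads were aligned with STAR 2.7.10 to hg38, per the submitters' processing notes, which also name edgeR. The deposited splicing table gives a percent spliced in (PSI) with its quality scores and supporting reads per event, per the file headers, and the step that made it is not given in the sources used here; its read numbers are corrected for mappability.

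Counts were scaled with TMM, genes with low counts were removed by filterByExpr, and 6 group means over all 12 libraries were fitted with the quasi-likelihood test of edgeR 4.0.16, which leaves 6 residual degrees of freedom. P-values were adjusted by Benjamini-Hochberg over 20593 genes. Events needed at least 20 reads in every library and 24 of the less used form in all. They were fitted by a quasi-binomial model whose dispersion was moderated with limma 3.58.1 and kept at 1 or above, and adjusted over 100386 events. All tests are two-sided. DESeq2 1.42.0, limma on logit PSI, other scalings and filters, and each library left out were alternatives. Exons follow GENCODE 29. Both models were tested on simulated data. The pooled comparison of the fusions averages the NT and MAPT guides. Intervals for a PSI cover counting error only.

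The 39 genes, the other lists and the tests were chosen with earlier results of these data known. The text names the genes and events that passed the test, the landmark genes of each phase and the 5 other events with the widest range of group means. Same-numbered replicates deviated together by correlations of -0.0979 to 0.166, so the numbers were not taken to pair libraries.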

Additional observations from a re-analysis of the deposited data

How the results depend on the processing

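No called difference changed its sign; of 33 uncalled landmark differences 12 did in some setting. With edgeR, the number of the 39 genes called in RBM25_NT against dCasRx_NT was 2, became 0 when only the groups compared were fitted (4 at an unadjusted p under 0.05), and ran from 0 to 3 with 1 library left out. The 11 genes of RBFOX1N_NT against dCasRx_NT became 6 with only the groups compared and ran from 1, without dCasRx_NT replicate 2, to 13, without dCasRx_NT replicate 1. The 16 genes between the fusions became 6 with the NT guide only and 10 with the MAPT guide only, and ran from 10, without RBFOX1N_NT replicate 1, to 18. RBM25_MAPT against RBM25_NT ran from 0 to 1 (1 without RBM25_MAPT replicate 1). The replicate block gave 2, 15 and 16 genes for the first 3 comparisons, DESeq2 gave 3, 13 and 17, and DESeq2's size factors in edgeR gave 2, 10 and 16. Except for the fits of a single guide, shares of all genes in these settings are not given here. A change in those counts is thus not read as a result about the 39 genes.

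Of the 647 splicing events, 4, 3, 5 and 6 were called in the 4 comparisons of effectors. A limit of 5 points gave 13, 11, 21 and 24. Shares of all events are not given here for this limit, for uncorrected reads or for left-out libraries. A change in those counts is thus not read as a result about these genes. Limma on logit PSI called 0 in each, with 124, 109, 129 and 116 at an unadjusted p under 0.05, and over all events it called 51, 293, 242 and 277. With the replicate block it called 0 again, with 124, 98, 124 and 109 at an unadjusted p under 0.05. These are 19.2%, 15.1%, 19.2% and 16.8% of the 647 events, against 12.7%, 13.4%, 14% and 14.6% of all events. At any size, the block gave an adjusted p under 0.05 for 0.155%, 0.309%, 0.464% and 0.464% of the 647 events. The shares of all events were 0.0369%, 0.386%, 0.369% and 0.399%, so RBFOX1N_NT against dCasRx_NT lay below. Uncorrected junction reads, an alternative chosen after seeing the data, gave 2 and 6 in the comparisons with dCasRx_NT. Leaving out 1 library gave 1 to 3, 1 to 5, 1 to 3 and 1 to 7 events, lowest without dCasRx_NT replicate 2 in the first, dCasRx_NT replicate 2 or RBFOX1N_NT replicate 2 in the second, RBFOX1N_NT replicate 2 in the third and RBFOX1N_MAPT replicate 1 in the fourth.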

Other observations

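Outside the called events, 5 events of the 39 genes had the widest ranges of group means, and none was called. An intron of CDK1, the kinase of mitosis, of 6102 nt (chr10:60785788-60791889, GRCh38) had a PSI of 57 and 28.1 in dCasRx_NT, 14.1 and 11.8 in RBM25_NT, and 10.3 to 15.7 in the other 4 RBM25 libraries. It was 20 and 28.2 in RBFOX1N_NT and 15.9 and 23.3 in RBFOX1N_MAPT. Both dCasRx_NT libraries lay above every RBM25 library, and the difference of RBM25_NT was -29.6 points (SE 8.52, adjusted p = 0.063). The dCasRx_NT values rest on only 22 and 25.1 reads, with 95% intervals of 36.9 to 75.1 and 14.4 to 47.7. The second interval overlaps that of RBM25_NT replicate 1, 8.35 to 22.8.

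CDC25C held 3 of these events. Its exon of 34 nt, just before exon 6, had a PSI of 73.1 and 71.7 in RBM25_MAPT and 51.5 and 50.6 in RBFOX1N_MAPT, without overlap, a difference of 21.4 points (adjusted p = 0.0587). The dCasRx_NT replicates were far apart for the same exon, at 52.1 and 78.4. A pair of alternative 3′ splice sites of CDC25C differed by 15.2 and -14.8 points in RBM25_NT against dCasRx_NT (adjusted p = 0.454 and 0.452). Exon 17 of CENPE, of 75 nt, had a PSI of 62.2 and 52 in RBFOX1N_NT against 43.5 and 38.2 in dCasRx_NT, a difference of 16.3 points (adjusted p = 0.232).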
